A study of Homo sapiens with 6 samples.

Results

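The genes described here are 8 members of the PI3K, AKT, mTOR and FOXO signalling chain: AKT1, AKT2, TSC1, TSC2, MTOR, FOXO1, FOXO3 and FOXO4. They were taken by symbol from a table of 16798 coding genes, and all 8 had enough reads to be tested. Bulk RNA-seq was available for 6 samples of COV434, which the authors describe as a human granulosa cell (GC) line. Its genotype is labelled WT. Of these samples, 3 were controls with no stated vehicle, and 3 had been exposed to 15 µM 4HC for 24 h. 4HC is the active metabolite of the alkylating drug cyclophosphamide (CTX), and its samples carry the name CTX in the labels.

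In this pathway, growth factor receptors recruit PI3K, which makes a membrane lipid that brings AKT to the plasma membrane for activation. Active AKT inhibits the TSC1 and TSC2 complex, which otherwise restrains the kinase mTOR through the small GTPase RHEB, and it also keeps FOXO transcription factors out of the nucleus. In the ovary the pathway is best known for its part in holding or releasing dormant follicles and in the survival and growth of GCs. All of these steps are set largely by phosphorylation, which RNA levels do not measure.

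Total counts were between 16133786 and 16702316 per sample. The labels do not say whether the 3 samples of a group were grown separately, so p-values measure only the spread between these samples, which may be technical, and no batch is named. COV434 is a single line, and GC markers were largely absent, with 5 of 17 listed markers having enough counts for a test. FOXL2 had 0 counts in the controls and a mean of 1 in 4HC, and FSHR and CYP19A1 each had a mean of 0.333 counts in both groups. The name GC line is thus that of the authors, and most of the listed markers do not bear it out. WT1 and KITLG were well expressed and fell in 4HC (log2 fold changes -0.35 and -0.24). Of 8 oocyte markers, 2 could be tested and 0 were called by edgeR or DESeq2, with 0 at an unadjusted p under 0.05 in edgeR, while limma on log2 TPM called 1 lower. In bulk RNA, fewer cells of a type and less RNA per cell cannot be told apart.

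Across the 8 genes the changes with 4HC were small and ran in both directions. AKT1, TSC2 and FOXO1 were higher, FOXO3 and FOXO4 were lower, and AKT2, TSC1 and MTOR did not pass the test. Thus 5 of the 8 had an adjusted p under 0.05 (edgeR's quasi-likelihood test, Benjamini-Hochberg over all 12368 genes tested), beside 36.4% of all genes. By direction, 3 were higher beside 19.2% of all genes, and 2 were lower beside 17.1%. No gene of the 8 had a fold change of at least 2 with an unadjusted p under 0.05, a limit passed by 1.15% of all genes. The control and 4HC samples did not overlap for 4 of the 8, beside 45.3% of all genes. Over the 8 genes the median of the log2 fold changes was 0.06, and over all genes it was 0.0047.

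**Figure D1:**
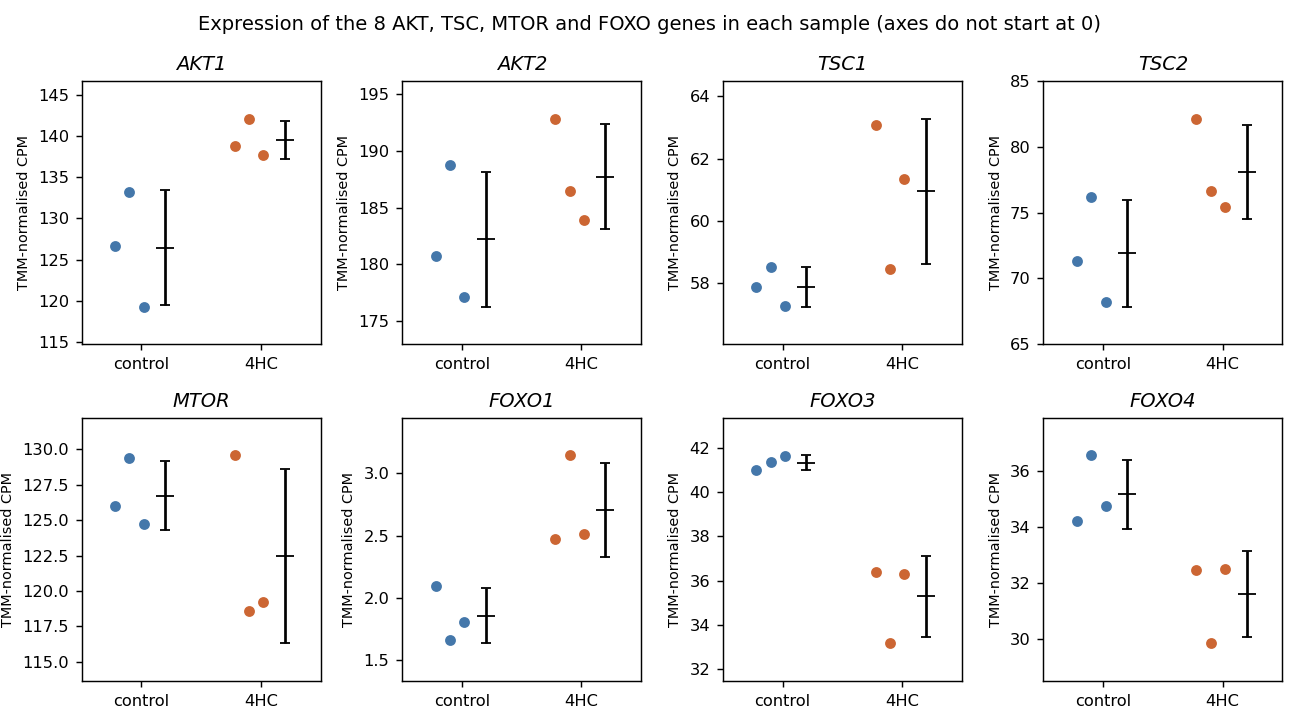
Expression of each of the 8 genes in TMM-normalised counts per 1000000 reads (CPM, vertical axes, which do not start at 0) in 3 control and 3 4HC samples, each point a sample, with the mean and SD of each group at its right. For AKT1 and FOXO1 every 4HC sample lies above every control, for FOXO3 and FOXO4 every 4HC sample lies below, and for the other 4 genes the groups overlap.

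Levels between genes were compared as TPM, which takes transcript length into account. In controls AKT2 was the most abundant of the 8, at 107 ± 5.08 TPM (SD, n = 3), followed by AKT1 at 78.2 ± 3.71 and MTOR at 23.7 ± 0.247. TSC2 stood at 19.9 ± 0.920, FOXO4 at 16.5 ± 0.581, TSC1 at 10.9 ± 0.0451 and FOXO3 at 9.58 ± 0.121. FOXO1 was by far the lowest, at 0.530 ± 0.0656 TPM. No neighbours in this order overlapped in the controls. In 4HC the order of the means was the same, and only MTOR (21.98 to 24.38 TPM) and TSC2 (21.20 to 22.83 TPM) overlapped.

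**Figure D2:**
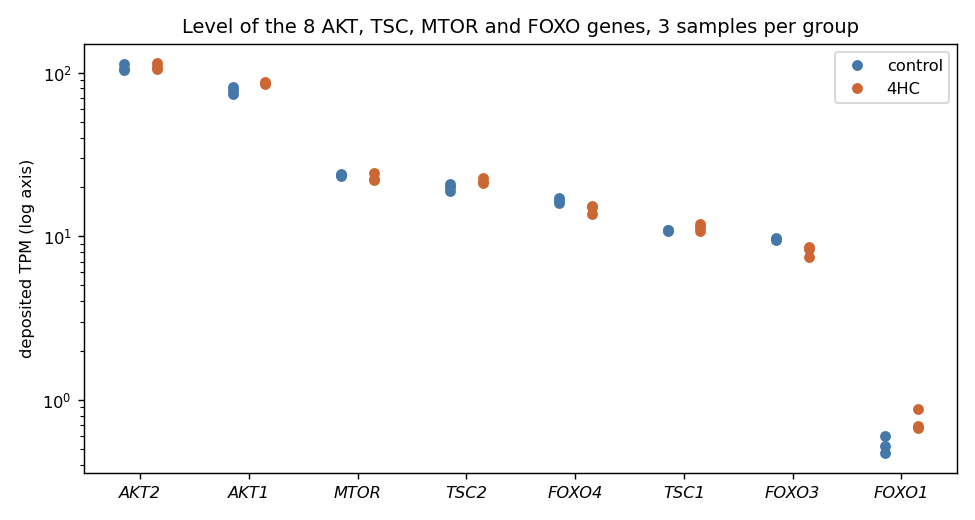
Deposited TPM of the 8 genes on a log axis, ordered by their control mean, with a point for each of 3 control and 3 4HC samples. AKT2 and AKT1 lie near 100 TPM and FOXO1 below 1 TPM in every sample.

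AKT1 and AKT2 encode serine/threonine kinases of the same family, AKT1 tied mostly to growth and survival and AKT2 to insulin action. AKT1 (NCBI Gene 207, GRCh38 chromosome 14, 104769349 to 104795748) was at 127, 133 and 119 CPM in controls 1 to 3 and at 139, 142 and 138 CPM in 4HC 1 to 3, where CPM is a count per 1000000 reads after TMM scaling. All 4HC samples were thus above all controls, and the mean rose from 126 ± 6.96 to 139.5 ± 2.30 CPM, or by 10.3%. The log2 fold change was 0.14 (standard error 0.040, 95% interval 0.06 to 0.22, adjusted p = 0.00412, edgeR). The call rested in part on the lowest control: without control replicate 3 the log2 fold change was 0.10 and the adjusted p was 0.0867.

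AKT2 (NCBI Gene 208, chromosome 19, 40230317 to 40285531) was at 181, 189 and 177 CPM in controls and at 193, 187 and 184 CPM in 4HC. These ranges overlapped, and the log2 fold change of 0.04 (95% interval -0.03 to 0.12) did not pass the test (adjusted p = 0.377, edgeR).

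TSC1 and TSC2 encode hamartin and tuberin, which form the complex that switches RHEB off. TSC2 (NCBI Gene 7249, chromosome 16, 2047804 to 2089491) was at 71.3, 76.2 and 68.2 CPM in controls and at 82.1, 76.7 and 75.4 CPM in 4HC. Treated samples lay mostly higher, but 4HC replicate 3 was below control replicate 2. The mean went from 71.9 ± 4.04 to 78.1 ± 3.58 CPM, an increase of 8.63% with a log2 fold change of 0.12 (standard error 0.047, 95% interval 0.02 to 0.21, adjusted p = 0.0429, edgeR). This call was lost under 10 of 14 alternatives, among them without control replicate 1 (0.11), control replicate 3 (0.08), 4HC replicate 1 (0.08) and 4HC replicate 2 (0.13). A second gene of the table, LOC100652777, spans the same 41688 bases, and its mean count was 8.52 in controls and 13 in 4HC against 1175 counts for TSC2 in controls.

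TSC1 (NCBI Gene 7248, chromosome 9, 132891349 to 132945269) was at 57.9, 58.5 and 57.3 CPM in controls and at 63.1, 58.5 and 61.3 CPM in 4HC. Both groups met at 58.5 CPM, and the log2 fold change of 0.07 (95% interval -0.02 to 0.17) did not pass the test (adjusted p = 0.236, edgeR). TSC1 took 35.3% ± 0.962 of the summed TPM of both genes in controls and 34.2% ± 0.772 in 4HC. TBC1D7, which encodes the third subunit of the complex, was at 24.4 ± 1.49 and 23.6 ± 1.62 CPM and did not pass the test either.

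MTOR encodes the kinase shared by the complexes mTORC1 and mTORC2. MTOR (NCBI Gene 2475, chromosome 1, 11106535 to 11273497) was at 126, 129 and 125 CPM in controls and at 129.6, 119 and 119 CPM in 4HC. Thus 2 of 3 treated samples were below all controls and the other was above all of them. The log2 fold change of -0.05 (95% interval -0.13 to 0.03) did not pass the test (adjusted p = 0.362, edgeR).

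The FOXO genes encode forkhead transcription factors that activate genes of cell cycle arrest, apoptosis, antioxidant defence and metabolism. FOXO3 is the member best known for keeping primordial follicles dormant, as an oocyte factor. FOXO3 (NCBI Gene 2309, chromosome 6, 108559825 to 108687783) was at 41.0, 41.4 and 41.6 CPM in controls and at 36.4, 33.2 and 36.3 CPM in 4HC. Controls lay close together and all 4HC samples were below them. The mean fell by 14.6%, from 41.3 ± 0.324 to 35.3 ± 1.83 CPM, with a log2 fold change of -0.23 (standard error 0.056, 95% interval -0.34 to -0.11, adjusted p = 0.00108, edgeR). This was the smallest adjusted p of the 8 genes, and the call held under all 14 alternatives, with log2 fold changes between -0.26 and -0.19. FOXO3B on chromosome 17 (18667629 to 18682314) is nearly identical in sequence to FOXO3, so reads could have been divided between both. It was also lower, at 13.5 ± 1.03 CPM in controls and 11.1 ± 0.918 CPM in 4HC (log2 fold change -0.27, adjusted p = 0.0186, edgeR).

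FOXO4 (NCBI Gene 4303, chromosome X, 71095851 to 71103534) was at 34.2, 36.6 and 34.8 CPM in controls and at 32.5, 29.8 and 32.5 CPM in 4HC. Again every treated sample lay below every control. The mean fell by 10.1%, from 35.2 ± 1.23 to 31.6 ± 1.52 CPM, with a log2 fold change of -0.15 (standard error 0.059, 95% interval -0.27 to -0.03, adjusted p = 0.0368, edgeR). The call was lost under 8 of 14 alternatives, among them without control replicate 2 (-0.13), control replicate 3 (-0.16) and 4HC replicate 2 (-0.12). IL2RG, whose span shares 3417 bases with FOXO4, had 0 counts in controls and a mean of 0.667 in 4HC.

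FOXO1 (NCBI Gene 2308, chromosome 13, 40555667 to 40666641) was barely expressed. Its expected counts were 34, 27 and 30 in controls and 41, 51 and 41 in 4HC, or 2.1, 1.66 and 1.81 CPM against 2.47, 3.15 and 2.51 CPM. The 4HC samples were all above the controls, and the mean rose by 45.8%, from 1.86 ± 0.220 to 2.71 ± 0.377 CPM. The log2 fold change was 0.54 with a wide 95% interval of 0.13 to 0.96 (standard error 0.208, adjusted p = 0.0350, edgeR). It was lost under 7 of 14 alternatives, among them without control replicate 2 (0.47), control replicate 3 (0.52) and 4HC replicate 2 (0.42).

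Since FOXO1 is so low, the summed TPM of FOXO1, FOXO3 and FOXO4 followed FOXO3 and FOXO4. The sum was 26.1, 27.2 and 26.7 TPM in controls and 24.3, 22.1 and 24.3 TPM in 4HC, with no overlap. FOXO4 held 62.1% ± 0.850 of the sum in controls and 62.4% ± 0.439 in 4HC, FOXO3 35.9% ± 0.611 and 34.4% ± 0.676, and FOXO1 1.99% ± 0.290 and 3.19% ± 0.680. FOXO6, the remaining gene of the family, had a mean of 4.67 counts in controls and 5.33 in 4HC and was too low to be tested.

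**Figure D3:**
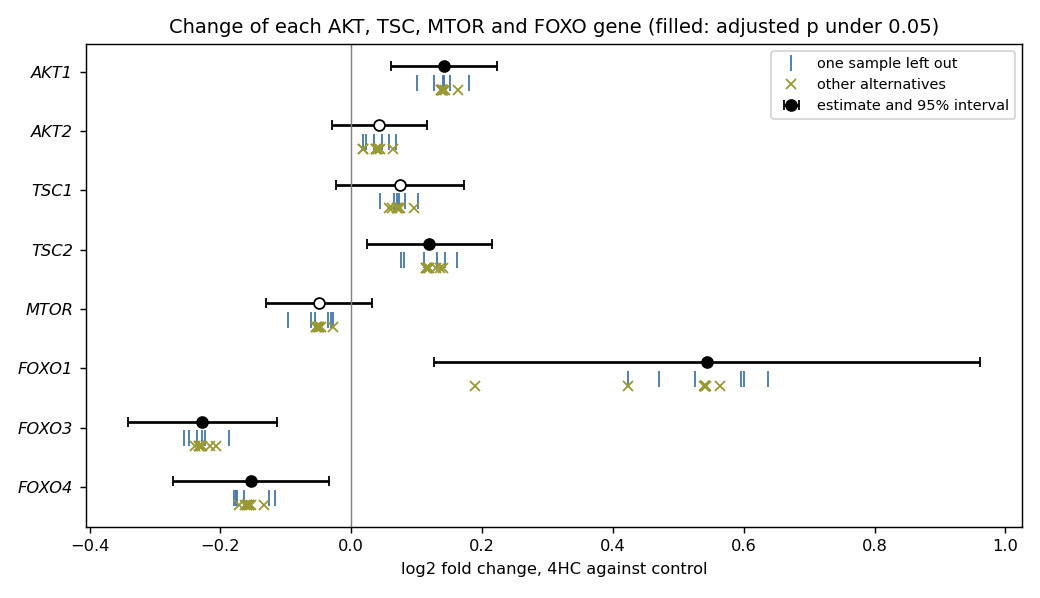
Log2 fold change of each of the 8 genes, 4HC against control, with its 95% interval (circles, filled where the adjusted p was under 0.05), the values with each sample left out in turn (ticks) and those of the other alternatives (crosses). FOXO3 stays between -0.26 and -0.19, and FOXO1 spreads from 0.19 to 0.64.

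To show the DNA in front of the FOXO genes, which did not all move the same way, the 150 bases before the RefSeq start of FOXO1, FOXO3 and FOXO4 (start 1 of 4 for FOXO3) were taken from the GRCh38.p14 promoter table, each written 5′ to 3′ on the strand of its gene. They lie at chr13:40666642-40666791 (minus strand), chr6:108559675-108559824 (plus strand) and chrX:71095701-71095850 (plus strand). Capitals mark a CCAAT box, which in FOXO1 reads as ATTGG because it lies on the opposite strand.
FOXO1: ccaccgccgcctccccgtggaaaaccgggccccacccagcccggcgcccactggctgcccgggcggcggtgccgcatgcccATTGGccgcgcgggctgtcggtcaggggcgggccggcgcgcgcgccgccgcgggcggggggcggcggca
FOXO3: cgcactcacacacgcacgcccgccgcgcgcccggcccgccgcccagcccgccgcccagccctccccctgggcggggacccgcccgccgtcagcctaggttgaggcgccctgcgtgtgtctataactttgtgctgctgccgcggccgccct
FOXO4: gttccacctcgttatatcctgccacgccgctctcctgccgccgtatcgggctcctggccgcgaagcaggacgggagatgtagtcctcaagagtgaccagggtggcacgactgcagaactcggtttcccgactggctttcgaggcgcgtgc

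G and C made up 84.7% of these bases in FOXO1, 77.3% in FOXO3 and 63.3% in FOXO4. In the whole windows, from 250 bases before to 50 after each of 14 starts of the 8 genes, 3 motifs were searched on both strands. The FOXO element GTAAACA was found only in FOXO4, 23 bases after the start, in this stretch at chrX:71095863-71095892 with the element in capitals.
FOXO4 element: cccggcgagtgGTAAACAgagacgtcagga

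The same element lies in 3.42% of 35116 RefSeq promoter windows. The E-box CACGTG, found in 7.26% of windows, occurred only at TSC2, and the CCAAT box, found in 34.6%, occurred 3 times at MTOR and once each at FOXO1 and at start 2 of AKT2. These are matches of letters, and no binding was measured.

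The other genes of the pathway were counted in 10 lists by role, with 109 genes of which 94 could be tested. In all, 16 were higher and 19 lower in 4HC, or 37.2% against 36.4% of all genes, and their median was -0.02 on the log2 scale. Of these 35 calls, 21 held under all 14 alternatives, 8 higher and 13 lower. Only CDKN1A passed a fold change of 2.

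Upstream of AKT, the receptors, their ligand and adaptors had 1 gene higher and 2 lower of 8 tested, beside 19.2% and 17.1% of all genes. KITLG, which encodes the KIT ligand that GCs present to oocytes, fell from 127 ± 5.6 to 107 ± 5.53 CPM, and the adaptor GAB2 fell from 35.9 ± 1.96 to 29.7 ± 0.553 CPM. The insulin receptor INSR rose from 32.7 ± 1.59 to 37.2 ± 3.54 CPM, a call that held under 8 of 14 alternatives (lowest log2 fold change 0.10). It was lost with DESeq2, with both limma settings and without control replicate 1, control replicate 2 or 4HC replicate 1. KIT (0.734 and 0.955 CPM) and IGF1R (1.65 and 1.32 CPM) were very low and did not pass the test. For the class I PI3K subunits, 0 of 6 tested were called by edgeR or DESeq2, beside 36.4% of all genes in edgeR. An unadjusted p under 0.05 was reached by 0 of them in edgeR. The largest differences were those of PIK3CD (0.19), PIK3R1 (0.12) and PIK3CB (0.06) on the log2 scale, and the summed TPM of the catalytic genes PIK3CA, PIK3CB and PIK3CD was 23.2 ± 0.704 and 23.9 ± 0.252. Among 6 phosphatases, PHLPP2, which removes an activating phosphate from AKT, fell from 75.2 ± 1.73 to 64.1 ± 2.16 CPM. PHLPP1 and INPP4B differed by -0.21 and -0.14 and did not pass the test.

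In the list of kinases and substrates around AKT, 1 of 9 genes was higher and 2 were lower, beside 19.2% and 17.1% of all genes. MDM2, the ubiquitin ligase that restrains p53 and is itself a p53 target, was at 444, 443 and 450 CPM in controls and at 872, 882 and 881 CPM in 4HC (log2 fold change 0.98, standard error 0.030, adjusted p = 6.87e-32, edgeR). AKT1S1 (PRAS40, an inhibitor of mTORC1) and CHUK (an IκB kinase) were lower, each by 0.14 on the log2 scale with an adjusted p of 0.0116 (edgeR). Of these, AKT1S1 held under 10 of 14 alternatives (smallest change -0.11). It was lost with both limma settings and without control replicate 2 or 4HC replicate 3. CHUK held under 12 of 14 and was lost without control replicate 1 or 4HC replicate 2 (smallest change -0.10). RHEB, the direct activator of mTORC1, was at 173, 166 and 174 CPM in controls and at 152, 159 and 158 CPM in 4HC, a fall in every treated sample below every control (log2 fold change -0.13, adjusted p = 0.00415, edgeR). Its low-level relative RHEBL1, at 1.1 ± 0.286 and 1.44 ± 0.668 CPM, did not pass the test (log2 fold change 0.39) and was called only without 4HC replicate 3 (0.73, adjusted p = 0.0428). Of the other subunits of the mTOR complexes, 0 of 6 were called by edgeR or DESeq2, beside 36.4% of all genes in edgeR. An unadjusted p under 0.05 was reached by 0 of them in edgeR. DEPTOR (0.35), RPTOR (-0.09) and RICTOR (-0.08) had the largest differences on the log2 scale.

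In the amino acid branch that brings mTORC1 to the lysosome, 5 of 17 genes were higher and 1 was lower, beside 19.2% and 17.1% of all genes. The count of higher genes was 2 with DESeq2, 1 or 2 with limma, 1 without 4HC replicate 1, 2 without control replicate 1 and 3 without control replicate 3. LAMTOR4, a subunit of the lysosomal anchor, rose from 54.0 ± 2.45 to 66.8 ± 2.83 CPM (log2 fold change 0.31) and RRAGA, a RAG GTPase, fell from 183 ± 2.60 to 167 ± 6.78 CPM, and both calls held under all alternatives. DEPDC5, a subunit of the GATOR1 complex that restrains mTORC1, rose from 15.6 ± 0.727 to 18.1 ± 1.04 CPM (log2 fold change 0.22, adjusted p = 0.0270, edgeR). The DEPDC5 call held under 8 of 14 alternatives. It was lost with DESeq2, with both limma settings and without control replicate 1 (0.18), 4HC replicate 1 (0.17) or 4HC replicate 2 (0.22). RRAGD, another RAG GTPase, was at 0.650 ± 0.280 and 0.856 ± 0.169 CPM and did not pass the test. Downstream of mTORC1, 3 of 9 genes were higher and 3 lower, beside the same 19.2% and 17.1%. The cap-binding factor EIF4E was at 169, 169 and 173 CPM in controls and at 138, 143 and 149 CPM in 4HC (log2 fold change -0.25, adjusted p = 4.19e-07, edgeR), while its inhibitor EIF4EBP2 rose from 168 ± 5.57 to 187 ± 2.50 CPM. The S6 kinase gene RPS6KB1 fell from 168 ± 10.0 to 148 ± 3.94 CPM and its paralog RPS6KB2 rose from 51.6 ± 2.49 to 57.8 ± 2.05 CPM. ULK1, which starts autophagy and is inhibited by mTORC1, rose from 32.0 ± 0.930 to 38.8 ± 2.31 CPM. The remaining call was LPIN1, lower by 0.19 on the log2 scale, which held under 7 of 14 alternatives. It was lost with DESeq2, library size only, both limma settings and without control replicate 1, 4HC replicate 2 or 4HC replicate 3. The RPS6KB2 call was lost without control replicate 3 or 4HC replicate 2.

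Among FOXO6 and the regulators of FOXO proteins, 0 of 12 tested genes were higher and 7 were lower, beside 19.2% and 17.1% of all genes, and the median of the list was -0.10 on the log2 scale. All 4 listed genes of 14-3-3 proteins, which bind phosphorylated FOXO in the cytoplasm, were among the 7. The list did not cover the whole 14-3-3 family. YWHAG was at 344, 338 and 357 CPM in controls and at 278, 274 and 283 CPM in 4HC (log2 fold change -0.32, adjusted p = 3.8e-11, edgeR). YWHAZ fell from 562 ± 2.26 to 495 ± 10.4 CPM and YWHAE from 676 ± 17.8 to 606 ± 28.6 CPM. The calls of these 3 genes held under all alternatives, and that of YWHAB (log2 fold change -0.09) held under 6 of 14 and was lost without control replicate 2, control replicate 3, 4HC replicate 1 or 4HC replicate 2. The others were EP300, a FOXO acetyltransferase (127 ± 3.32 to 110.3 ± 5.35 CPM), the deubiquitinase USP7 (217 ± 4.42 to 192 ± 4.32 CPM), and the kinase SGK1 (169 ± 4.07 to 157 ± 5.77 CPM). The SGK1 call held under 9 of 14 alternatives. It was lost with library size only and without control replicate 1, control replicate 3, 4HC replicate 1 or 4HC replicate 2. The count of lower genes was between 5 and 7 over the alternatives. SGK3, a kinase related to AKT, was at 0, 1.72 and 3.56 CPM in controls and at 2.90, 2.71 and 2.51 CPM in 4HC, and its log2 fold change of 0.61 did not pass the test (adjusted p = 0.147, edgeR). Its log2 fold change was 0.03 without control replicate 1 and 1.64 without control replicate 3, and SGK3 was called without control replicate 3 (adjusted p = 0.00116) and without a filter (adjusted p = 0.0454), which makes 1 higher gene in the list under each of these settings.

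Of 21 tested FOXO target genes, 6 were higher and 2 lower, beside the same 19.2% and 17.1%, and the median of the list was -0.06 on the log2 scale. The largest changes were in CDKN1A, BBC3 and GADD45A, which are also established p53 targets, and the cause of these changes was not tested. CDKN1A, which encodes the cell cycle inhibitor p21, was at 220.3, 233 and 221 CPM in controls and at 799.7, 786 and 764 CPM in 4HC (log2 fold change 1.80, standard error 0.033, adjusted p = 2.56e-42, edgeR). BBC3, which encodes the apoptosis activator PUMA, rose from 33.0 ± 0.438 to 56.3 ± 3.81 CPM, and the stress gene GADD45A rose from 28.9 ± 1.02 to 36.8 ± 1.38 CPM. CDKN1B, which encodes p27, fell from 28.9 ± 0.905 to 23.8 ± 2.44 CPM. BNIP3, a mitophagy gene, was at 97.0, 105 and 94.8 CPM in controls and at 77.9, 83.7 and 103 CPM in 4HC, so that 4HC replicate 3 lay above 2 of 3 controls (log2 fold change -0.16, adjusted p = 0.0174, edgeR). CCNG2, an atypical cyclin, rose by 0.20 on the log2 scale, and PINK1, a mitochondrial quality control kinase, by 0.14. The antioxidant genes SOD2 (-0.07) and CAT (-0.08) did not pass the test. SOD2 was called lower under 3 of 14 alternatives and CAT under 0. The log2 fold change of BNIP3 was -0.29 without 4HC replicate 3, and its call held under 8 of 14 alternatives. Among the losses were DESeq2 and the fits without control replicate 2, 4HC replicate 1 (-0.08) or 4HC replicate 2. The PINK1 call held under 7 of 14 alternatives. It was lost with DESeq2, both limma settings and without control replicate 1, control replicate 3, 4HC replicate 1 or 4HC replicate 2.

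**Figure D4:**
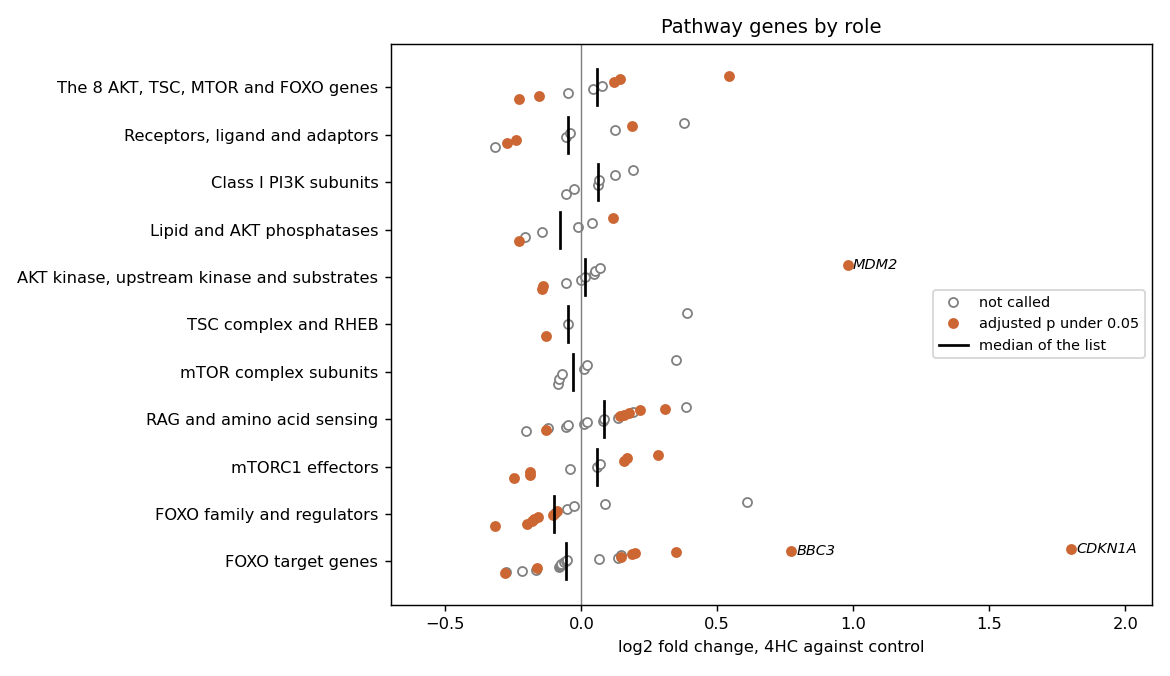
Log2 fold change, 4HC against control, of each tested gene in the 10 role lists and of the 8 genes described here, filled where the adjusted p was under 0.05, with the median of each list as a vertical bar. Most points lie between -0.4 and 0.4, and MDM2, BBC3 and CDKN1A stand apart on the right.

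FOXO3 was also compared with every other tested gene by the Pearson correlation of log2 CPM over the 6 samples. The closest were NRF1 (r = 0.996), LTV1 (0.995), SLITRK5 (0.995), PTX3 (0.994) and NPAS3 (0.994), each lower in all 4HC samples, and 254 of 12367 genes reached 0.95. With 6 samples in 2 groups such values are a description only, since a difference between the groups and a shared scaling factor enter every point.

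The deposited transcript values divide each gene between its RefSeq transcripts. The 8 genes had 57 transcripts in the table, of which 43 were tested and 0 were called by edgeR beside 1.29% of all 42216 transcripts tested, while 5 had an unadjusted p under 0.05 and DESeq2 called 3. In 7 of the 43 the groups did not overlap, beside 20% of all transcripts. The biological coefficient of variation was 0.724 for transcripts and 0.0277 for genes, so the division between transcripts was far less exact than the gene totals.

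For AKT1, the transcript NM_001014431 held 77.8%, 77.2% and 80.2% of the summed transcript TPM in controls and 83.2%, 85.1% and 82.8% in 4HC. Its share and its counts (1576, 1646 and 1564 against 1892, 1941 and 1842) were thus higher in every treated sample. Its log2 fold change was 0.24 (adjusted p = 0.0568 from edgeR and 5.3e-06 from DESeq2). In the opposite direction, the minor AKT1 transcript NM_005163 had 132, 126 and 138 counts in controls and 87.3, 81.9 and 63.7 in 4HC (log2 fold change -0.77, adjusted p = 0.00242, DESeq2). For MTOR, NM_004958 held 75.5% ± 4.02 in controls and 74.1% ± 1.46 in 4HC, and XM_017000900 held 15.4%, 8.14% and 13.7% in controls and 20.2%, 19.7% and 22.9% in 4HC. The counts of XM_017000900 also did not overlap (161 to 298 against 359 to 425), but its log2 fold change of 0.72 did not pass the test (adjusted p = 0.316, edgeR).

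For TSC1 and FOXO3 the division varied as much within a group as between groups. In TSC1, NM_000368 held 30.1%, 52.2% and 41.4% in controls and 47.8%, 53.3% and 50.4% in 4HC, NM_001162426 held from 4.16% to 33.1% and XM_005272211 from 6.22% to 28.9%. The TSC1 transcript XM_017015096 had expected counts of 0 in each control and 46.6, 21.4 and 84.8 in 4HC. DESeq2 called it (adjusted p = 2.78e-06) and edgeR did not. These values divide reads among the TSC1 transcripts, so a 0 does not show that the transcript was absent. In FOXO3, NM_201559 held 41.1%, 43.5% and 44.2% in controls but 62.2%, 57.5% and 19.6% in 4HC, with XM_011535629 (12.1% to 53.2%) and NM_001455 (10.7% to 27.2%) taking up the rest. The lower FOXO3 total could therefore not be placed in any of its transcripts.

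The remaining genes were simpler. FOXO4 came almost wholly from NM_005938 (96.3% ± 2.22 in controls and 98.7% ± 1.17 in 4HC), and FOXO1 from NM_002015 (100% in each control and 94.6% ± 6.04 in 4HC). AKT2 was divided between XM_011526622 (53.1% ± 2.26 and 52.2% ± 2.02) and XM_011526614 (34.0% ± 2.76 and 30.9% ± 1.87). TSC2 came mainly from NM_001363528 (41.3% ± 9.61 and 37.3% ± 6.39) and XM_024450413 (21.7% ± 10.4 and 33.9% ± 1.83), and in both the shares of the groups overlapped.

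**Figure D5:**
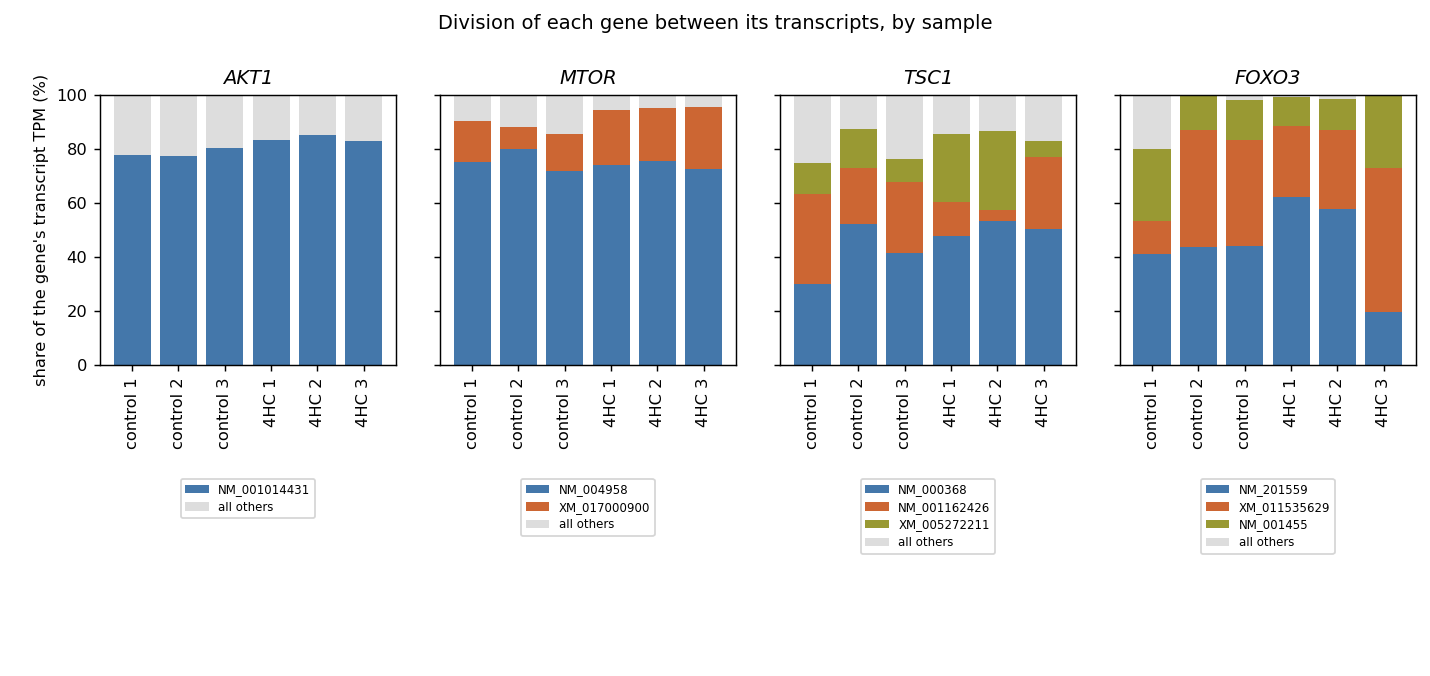
Share of the summed transcript TPM of AKT1, MTOR, TSC1 and FOXO3 held by each transcript with at least 10% in either group, as stacked bars starting at 0, with a bar for each sample. NM_001014431 of AKT1 is higher in all 4HC samples, and the bars of TSC1 and FOXO3 differ within each group.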

How the data were processed

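Expected counts of genes and transcripts and TPM values were deposited by the authors for 3 control and 3 4HC samples. Per the labels, reads were filtered with SOAPnuke and analysed on the Dr. Tom system, and the submitters' processing notes name HISAT2, Bowtie2, RSEM 1.3.1 and GRCh38.p13, without roles. The deposited expected counts were not normalised. For TPM, the authors divided by transcript length and set each sample to 1000000 in all. The authors also deposited FPKM values and the log2 fold changes, p-values and q-values of their own DESeq2 comparison, none of which was used, and a second gene table with the same values, also not used.

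Samples were grouped by title. Expected counts were rounded, and edgeR 4.0.16 was run under R 4.3.3 (TMM, filterByExpr, quasi-likelihood test, condition only), with 12368 genes and, separately, 42216 transcripts. CPM was computed from these counts. A call is a Benjamini-Hochberg adjusted p under 0.05 over all features tested. The 14 alternatives per gene were DESeq2 1.42.0, its size factors within edgeR, library size only, no filter, at least 10 counts in every sample, a replicate block, limma 3.58.1 on log2(TPM + 1) or log2(TPM + 0.1), and each sample left out in turn. The edgeR fit of genes was tested on simulated counts, and the transcript, DESeq2 and limma fits were not. The chi-square per gene between replicates was 1.7 to 2.46, above sampling noise alone.

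The 8 genes and the lists were chosen with earlier results of these data known. Named beside them were the 3 genes of largest change in each list, those past a fold change of 2, the 5 genes most like FOXO3, and transcripts with at least 10% of a gene's TPM. Other genes and transcripts were named after their values were seen. Some members of the lists are counted but not reported by name here. Promoter sequences came from RefSeq (GRCh38.p14), and tables and plots were made in pandas 2.3.3 and matplotlib 3.10.9 under Python 3.11.15.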

Additional observations from a re-analysis of the deposited data

How the results depend on the processing

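The calls of FOXO3 and the missing calls of AKT2, TSC1 and MTOR held under all 14 alternatives, and no alternative turned the direction of any of the 8 genes. The cause of the lost calls was not tested. With DESeq2, 1 of the 8 was higher and 1 lower (TSC2 0.11, FOXO1 0.54 and FOXO4 -0.16 were lost), and 1717 and 1623 of all genes. With DESeq2's size factors TSC2 (0.11) was lost, without a filter TSC2 (0.12), and with library size only FOXO4 (-0.13), which left 1 lower. With limma on log2(TPM + 1), TSC2 (0.13), FOXO1 (0.19) and FOXO4 (-0.16) were lost, leaving 1 higher and 1 lower, and 9 pathway genes were higher. The pseudocount shrinks the fold change of a gene as low as FOXO1. With a pseudocount of 0.1 the values were 0.13, 0.42 and -0.17, again with 1 higher and 1 lower, and 10 pathway genes were higher.

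Same-numbered deviations correlated at 0.009, 0.069 and 0.03. Controls 2 and 3 were matched best by the treated sample of their own number, and control 1 by treated sample 3. With so few samples per group, these values cannot decide whether the replicate numbers paired the samples. With the replicate number as a block, the so-called replicate block, TSC2 (0.12), FOXO1 (0.54) and FOXO4 (-0.15) were lost, and 1 gene was higher and 1 lower. The block turned the transcripts NM_001363528 of TSC2 (0.0044) and XM_011535629 of FOXO3 (0.098). At a fold change of at least 2 with an unadjusted p under 0.05, 0 of the 8 were higher and 0 lower, 1 pathway gene was higher and 0 lower, and of all genes 126 were higher and 16 lower. DESeq2 called 3 transcripts of the 8 genes.

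Leaving out each sample in turn gave 0 to 3 genes higher and 1 to 2 lower of the 8, and 10 to 18 pathway genes higher. The log2 fold changes ranged from 0.10 to 0.18 for AKT1, 0.076 to 0.16 for TSC2, 0.42 to 0.64 for FOXO1 and -0.18 to -0.12 for FOXO4. Without control replicate 3, 0 of the 8 were higher and 1 was lower. Transcripts changed sign, with ranges of -0.049 to 0.082 for XM_011526622 of AKT2, -0.18 to 0.24 for NM_001363528 of TSC2, and, of FOXO3, -0.97 to 0.064 for NM_001455, -0.47 to 0.28 for XM_011535629 and -0.45 to 0.21 for NM_201559. The depth of 27 to 51 counts limits FOXO1. RNA of a single line, dose and time was measured, and no protein or phosphorylation.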

Other observations

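The annotation that the authors deposited with the gene table assigns genes to KEGG categories. These categories, looked at after the values were seen, hold further genes of the same pathways. In the PI3K-Akt category 44 of 221 tested genes were higher and 47 lower in 4HC, in the mTOR category 27 and 24 of 131, and in the FoxO category 26 and 19 of 113, each with a median log2 fold change of 0.01. The shares called were 41.2%, 38.9% and 39.8%, beside 36.4% of all genes.

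Outside the lists of the report, genes were ranked by log2 fold change only if they were called and passed a minimum mean CPM. Among the genes ranked in the PI3K-Akt category, the receptor tyrosine kinase gene EPHA2 rose most, from 10.5 ± 0.977 to 35.6 ± 1.73 CPM (SD, n = 3). It was followed by the integrin subunit ITGB4 (log2 fold change 1.39) and the growth factor CSF1 (0.83). Of the same ranked genes, RELN, the ephrin ligand EFNA3 and the receptor ERBB4 fell most, by 0.59, 0.45 and 0.40 on the log2 scale. In the mTOR category, the phosphatidate phosphatase gene LPIN3 rose from 12.9 ± 0.946 to 26.2 ± 1.48 CPM, while LPIN1 of the report was lower. SESN2, a stress-induced inhibitor of mTORC1, rose from 83.0 ± 5.21 to 133 ± 5.39 CPM, and RPS6KA1 rose by 0.64. SLC7A5, a leucine transporter, fell from 158 ± 4.75 to 124 ± 4.33 CPM, and FZD4 and CAB39L fell by 0.34 and 0.32. In the FoxO category, the kinase PLK3 rose from 7.54 ± 0.360 to 21.5 ± 1.83 CPM, the AMPK subunit PRKAB1 from 25.4 ± 0.461 to 45.4 ± 2.44 CPM and MAPK11 by 0.52 on the log2 scale. The mitotic genes PLK1, CCNB1 and CCNB2 fell by 0.73, 0.57 and 0.27. For all 18 genes named here from these categories an adjusted p under 0.05 (edgeR) was a condition for being named. The 4HC and control samples did not overlap in any of them, beside 45.3% of all genes. Since these genes were picked for large called changes, this is a description only.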
